A study of Mus musculus with 11 samples.

Results

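The RNAs described here are small nucleolar RNAs, small Cajal body RNAs, small nuclear RNAs and Y RNAs, taken as all genes whose platform symbol begins with Snora, Snord, Scarna, Rnu or Rny. A member had a probe set with 1 gene symbol and an intensity above 100, the floor of the deposited values, on at least 1 of the 11 arrays. A gene with several such probe sets was represented by the one of highest mean. The rule found 77 members among 14301 genes that passed the same floor: 24 Snora, 43 Snord, 5 Scarna, 3 Rnu and 2 Rny genes. The members were thus chosen by intensity on all 11 arrays, sorted arrays included. A further 7 genes with such symbols (Rnu5g, Snora19, Snora35, Snord85, Snord90, Snord92 and Snord111) were at the floor on all 11 arrays. The members just inside the rule reached a highest intensity of 111 (Snord61), 143 (Snord91a) and 155 (Snord70), and the genes just outside the rule had 100.

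The arrays measured total RNA of mouse cells during reprogramming, with 1 array per group. Sorted cells came from cultures of Rosa-rtTA+/- mouse embryonic fibroblasts that carried tetO-Sox2, tetO-Myc, tetO-Oct4 and tetO-Klf4 by infection and received doxycycline from day 0, which switches on these factors. These cultures were double sorted at day 6 and day 9 into CD49d+, CD73+ and CD73- cells, which gave 6 arrays. CD49d (gene Itga4) and CD73 (gene Nt5e) are surface proteins, and cells with either are labelled poised. The other 5 arrays held unsorted cells of the same cultures at day 6 and day 9 and 3 controls. The controls were a partially reprogrammed line (SC4, passage 10), V6.5 embryonic stem cells (ESC, passage 11) and uninfected Rosa-rtTA+/- fibroblasts (MEF, passage 4). The unsorted, SC4, ESC and MEF samples were not sorted, so the sort itself and the identity of the sorted cells cannot be told apart.

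Box C/D small nucleolar RNAs (Snord) guide ribose methylation and box H/ACA RNAs (Snora) guide pseudouridylation of ribosomal RNA in the nucleolus. The Scarna RNAs do the same for spliceosomal RNAs in Cajal bodies. Most are cut from introns of host genes and trimmed to the ends that their core proteins protect, while a few have promoters of their own. Y RNAs are made by RNA polymerase III and bind the Ro60 and La (gene Ssb) proteins.

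The array medians above the floor ran from 347 to 388, and 52.14% to 54.31% of probe sets lay at the floor on each array. Nt5e was 3438 and 3658 in CD73+ cells at day 6 and day 9, against 332 and 292 in CD73- cells. Itga4 was 1859 and 1588 in CD49d+ cells, against 153 and 169.6 in CD73- cells. Of the members, 58 were above the floor on all 11 arrays. A value at the floor is an upper bound. In these bulk samples fewer cells of a type and less RNA per cell cannot be told apart. Intensities of different probe sets are not on one scale, so levels were compared between arrays and not between genes.

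A small group of members was far lower on the sorted arrays, most members were not, and 1 member was far higher. Across the 11 arrays, 10 members were lower on all 6 sorted arrays than on any of the 5 others, against 0.741% of all 14301 genes. They were Rny3, Rny1, Snord89, Snord99, Snord49b, Snord82, Snord47, Snora15, Snora33 and Snora62. Snord13 was the 1 member higher on all 6, against 1.21% of genes. Among genes that also differed by 1 log2 unit (2-fold) or more in the mean, 5 of the 9 lower genes were members (Rny3, Snord89, Snora15, Rny1 and Snord99) and 1 of the 9 higher genes was Snord13. Genes of each kind made up 0.0629% of the 14301. The other lower genes were Htra1, Nmnat2, Eif4a1 and Rpph1. These counts describe 11 arrays of different cells and carry no test. Rny1 was at the floor on all 6 sorted arrays, so it entered the members through the other arrays and could only be lower.

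By class, the median log2 difference of the 6 sorted minus the 5 other arrays was -2.36 for the Rny genes, -0.28 for Rnu, -0.22 for Scarna, -0.002 for Snora and 0.04 for Snord. The median over all members was -0.12, with 42 members below 0 and 35 above, and over all 14301 genes it was -0.01. Against these 5 arrays the class medians of the nucleolar RNAs thus lay near 0, with single members far from it. The MEF array among the 5 was the lowest of all 11 for 16 Snora and 21 Snord members. Against unsorted cells alone the median was -0.32 for Snora, with 16 of 24 below 0. It was -0.04 for Snord, with 24 of 43 below 0, and 0.001 over all genes tested. The Rny median rests on 2 genes, of which Rny1 could not be higher. In the Snora class the lowest differences were -1.52 (Snora34), -1.42 (Snora15) and -1.31 (Snora44), and the highest were 0.75 (Snora69), 0.52 (Snora23) and 0.46 (Snora41). In the Snord class they ran from -2.51 (Snord89) and -1.27 (Snord99) to 0.57 (Snord19) and 2.10 (Snord13).

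**Figure D1:**
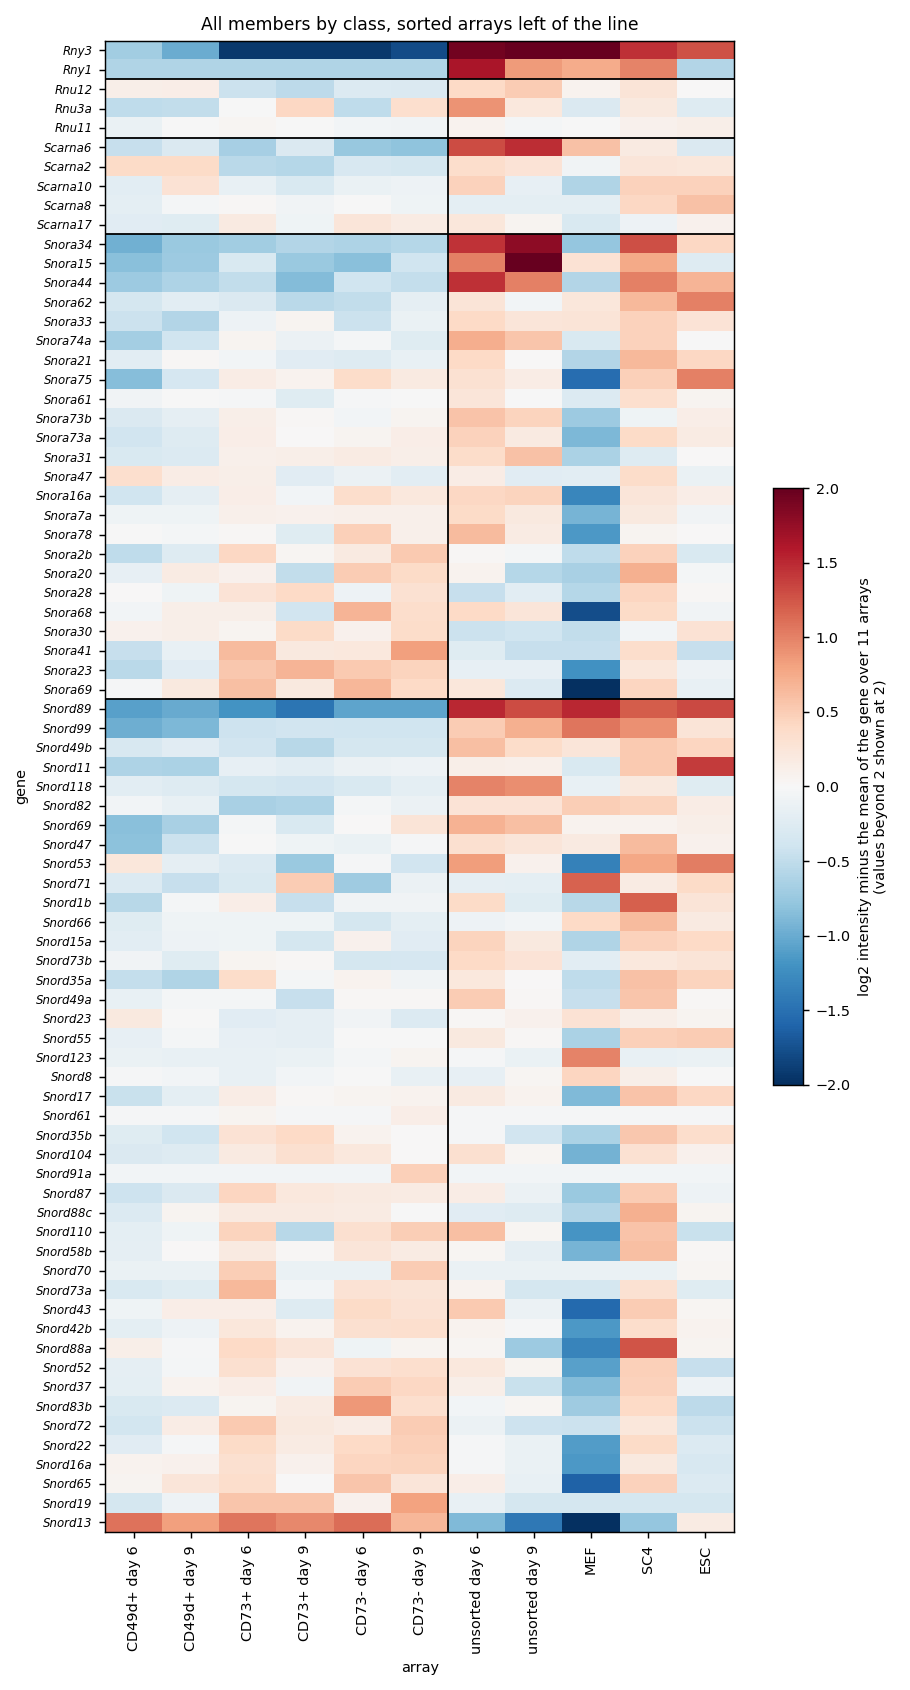
Log2 intensity of each of the 77 members (rows, by class) minus its mean over the 11 arrays (columns), with sorted arrays left of the vertical line. Blue cells are below and red cells above the mean of the gene, and values beyond 2 are shown at 2. Rny3, Rny1 and Snord89 are blue on all 6 sorted arrays, and Snord13 is red on all 6.

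The 2 Y RNAs, small cytoplasmic RNAs that bind Ro60, were both among the lower members, and Rny3 had the lowest difference of all. Rny3 had intensities of 236 and 191 in CD49d+ cells, 100 and 100 in CD73+ cells and 100 and 109.8 in CD73- cells at day 6 and day 9. It had 1455 and 1588 in unsorted cells, 2223 in MEF, 1044 in SC4 and 917 in ESC. The 6 sorted arrays held at most 236 and the 5 others at least 917, and among sorted cells both CD49d+ arrays were the highest. Sorted minus unsorted was -3.54 ± 0.101 (SE), adjusted p = 0.00164 in limma with Benjamini-Hochberg adjustment, the lowest difference of all 13313 genes tested. The fitted 11.6-fold difference may understate the gap, since 3 of the sorted arrays were at the floor.

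Rny1 was at the floor on all 6 sorted arrays. It had 469 and 275 in unsorted cells, 253 in MEF, 301 in SC4 and 102 in ESC, so the ESC array lay barely above the floor and the other 4 well above it. Sorted cells were at least 3.59-fold lower than unsorted cells (limma adjusted p = 0.0193). With every sorted value at the floor, Rny1 became a member through the other arrays alone and could not be higher in sorted cells. The p-value is thus no support for its direction. The ESC array was thus close to the sorted arrays for Rny1 and far from them for Rny3.

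**Figure D2:**
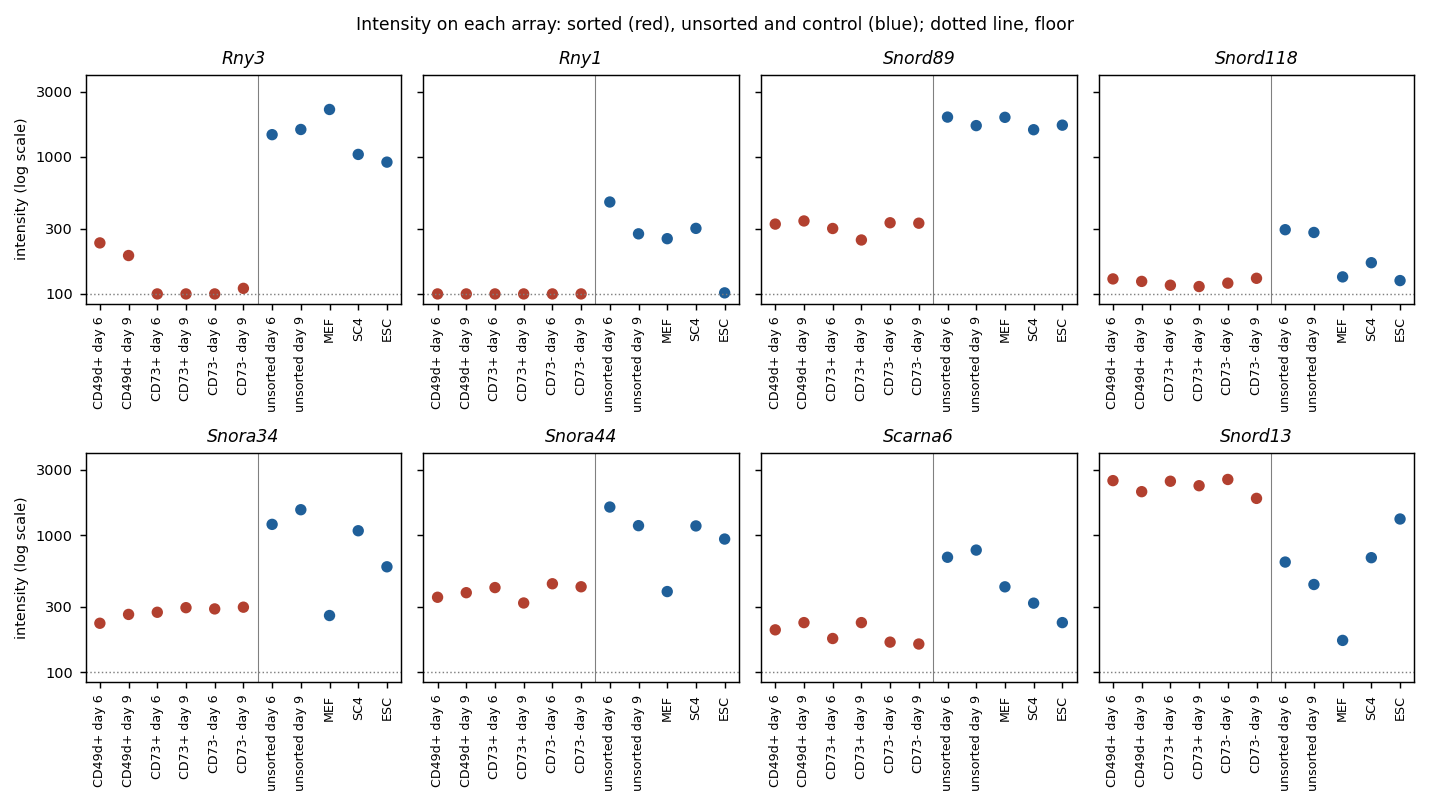
Intensity on a log axis (vertical) on each of the 11 arrays (horizontal) for 8 members, with sorted arrays in red left of the line, unsorted and control arrays in blue, and the floor of 100 as a dotted line. The 6 sorted arrays of Rny3 and Snord89 lie below all 5 others, those of Snord13 lie above, and the MEF array of Snora34 and Snora44 lies with the sorted ones.

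Of the box C/D RNAs that lie inside no other gene of the RefSeq gene table, Snord89 was lower and Snord13 higher on every sorted array. Snord89 had 323 and 341 in CD49d+ cells, 300.5 and 248 in CD73+ cells and 331 and 328 in CD73- cells at day 6 and day 9. It had 1956 and 1695 in unsorted cells, 1948 in MEF, 1581 in SC4 and 1708 in ESC. The values were even within each side, and the highest sorted value was 341 against a lowest other value of 1581. Sorted minus unsorted was -2.55 ± 0.0855 (SE), adjusted p = 0.00164 in limma, a 5.87-fold difference.

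Snord13 (U13), which in human cells directs acetylation of small-subunit ribosomal RNA, went the other way. It had 2506 and 2082 in CD49d+ cells, 2481 and 2301 in CD73+ cells and 2556 and 1859.8 in CD73- cells at day 6 and day 9. It had 637 and 437 in unsorted cells, 171 in MEF, 686 in SC4 and 1315 in ESC. The MEF array was the lowest, and the ESC array was the highest of those not sorted. Sorted minus unsorted was 2.11 ± 0.0971 (SE), adjusted p = 0.00423 in limma, a 4.33-fold difference and the highest of all 13313 genes tested.

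Snord118 (U8), which is needed to process large-subunit ribosomal RNA, had 129 and 123 in CD49d+ cells, 116 and 113 in CD73+ cells and 119.8 and 130.1 in CD73- cells at day 6 and day 9. It had 294 and 281 in unsorted cells, 133 in MEF, 169 in SC4 and 125 in ESC. Here the sorted arrays overlapped MEF and ESC, and only unsorted cells stood clearly above. The limma difference from unsorted cells was -1.24 ± 0.0586 (SE), adjusted p = 0.00423.

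Most box C/D RNAs are guides cut from introns, and 43 members belong to the class, Snord89, Snord118 and Snord13 included. Limma called 9 lower (20.9%) and 1 higher in sorted than in unsorted cells, against 4.16% and 4.38% of all genes. Beside Snord89 and Snord118 the lower ones were Snord99 (-1.19), Snord69 (-0.91), Snord49b (-0.85), Snord53 (-0.69), Snord82 (-0.54), Snord73b (-0.48) and Snord11 (-0.42), all log2 differences. Snord99 had 553 and 583 in CD49d+ cells, 813 and 832 in CD73+ cells and 819 and 822 in CD73- cells at day 6 and day 9. It had 1543 and 1769 in unsorted cells, 2273 in MEF, 2036 in SC4 and 1292 in ESC. Both CD49d+ arrays were the lowest, and all 6 sorted arrays were below the 5 others.

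Snord49b and Snord82 were bright on every array and their sorted arrays were likewise all lower. Snord49b had 2196 and 2343 in CD49d+ cells, 2114 and 1879 in CD73+ cells and 2156 and 2156 in CD73- cells at day 6 and day 9. It had 4148 and 3555 in unsorted cells, 3254 in MEF, 3950.2 in SC4 and 3703 in ESC. The difference of -0.85 from unsorted cells (limma adjusted p = 0.0193) was spread evenly over the 3 sorted populations. Snord82 ranged over 2024 to 3091 on sorted arrays and over 3511 to 4453 on the others, with the CD73+ arrays lowest at 2024 and 2073. Snord47 also had no overlap, with 756 to 1335 on sorted arrays and 1419 to 2082 on the others, but missed the threshold against unsorted cells (limma adjusted p = 0.0504).

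The other 33 box C/D members were not called, with sorted minus unsorted log2 differences of -0.53 to 0.51 and SEs of 0.0558 to 0.25. Those of highest difference from the 5 others after Snord13 all overlapped them. Snord19 ranged over 100 to 223 on sorted arrays and over 100 to 115 on the others. Snord65 ranged over 1402 to 2041 and 454 to 1917, Snord16a over 1736 to 2255 and 753 to 1902, and Snord22 over 286 to 463 and 154 to 437. Snord11 also overlapped, at 227 to 329.8 on sorted arrays and 286 to 925 on the others. Snord61 and Snord91a were above the floor on sorted arrays alone, with at most 111 and 143, so their place among the members came from the sorted side.

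Among the 24 box H/ACA RNAs, which guide pseudouridylation, limma called 7 lower (29.2%) and 1 higher in sorted than in unsorted cells. The shares of all genes were 4.16% and 4.38%. Snora34 had 228 and 264 in CD49d+ cells, 274 and 296 in CD73+ cells and 289.9 and 298 in CD73- cells at day 6 and day 9. It had 1201 and 1537 in unsorted cells, 259 in MEF, 1079 in SC4 and 589 in ESC. The MEF value lay within the sorted range and the other 4 arrays lay above it. Sorted minus unsorted was -2.31 ± 0.0747 (SE), adjusted p = 0.00164 in limma, a 4.96-fold difference.

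Snora44 likewise separated from unsorted cells and not from MEF. It had 353 and 381 in CD49d+ cells, 415 and 320.3 in CD73+ cells and 443 and 421 in CD73- cells at day 6 and day 9. It had 1608 and 1176 in unsorted cells, 388 in MEF, 1170.3 in SC4 and 939 in ESC. The limma difference from unsorted cells was -1.83 ± 0.124 (SE), adjusted p = 0.00995, and MEF again lay within the sorted range.

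Snora15 was near the floor in sorted cells. It had 100 and 109 in CD49d+ cells, 146 and 107 in CD73+ cells and 100 and 135 in CD73- cells at day 6 and day 9. It had 362 and 753 in unsorted cells, 219 in MEF, 302 in SC4 and 149.6 in ESC. The sorted arrays were below all others, and the day 9 unsorted array was the highest. The fitted difference of -2.18 ± 0.281 (SE), adjusted p = 0.0249 in limma may be an understatement, because 2 sorted arrays were at the floor.

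The remaining lower H/ACA members were Snora74a (-0.88), Snora33 (-0.59), Snora73b (-0.56) and Snora31 (-0.49). Snora33 ranged over 3013 to 4717 on sorted arrays and over 5348 to 6229 on the others, with no overlap. Snora62 had no overlap either (224 to 286 against 311 to 649.7), but limma did not call it against unsorted cells (adjusted p = 0.113). Snora73b (U17), which takes part in cleavage of the ribosomal RNA precursor, shares most of its sequence with Snora73a (-0.37, not called), so how the probe sets divide the pair is uncertain. Snord73a and Snord73b, Snord35a and Snord35b, Snord49a and Snord49b, and Snord88a and Snord88c have paired names too. Their sequences were not compared, so the same uncertainty may apply to them.

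Snora30 was called higher, at 0.59 ± 0.0815 (SE), adjusted p = 0.0271 in limma. It had 176 and 180.0 in CD49d+ cells, 173 and 216 in CD73+ cells and 177 and 213 in CD73- cells at day 6 and day 9, against 124 and 126 in unsorted cells, 117 in MEF, 159.9 in SC4 and 204 in ESC. The ESC array lay within the sorted range. The other 16 H/ACA members were not called and had log2 differences of -0.44 to 0.56 from unsorted cells. Snora69, Snora23, Snora41 and Snora68, high on sorted arrays in the mean, all overlapped the others: Snora69 ranged over 933 to 1492 on sorted arrays and over 195 to 1278 on the others, with MEF lowest. Snora23 ranged over 1508 to 3500.3 and 949 to 2545 on the same sets of arrays.

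Of the 5 Cajal body RNAs, Scarna6 and Scarna2 were called lower in sorted cells. Scarna6 had 204 and 230.3 in CD49d+ cells, 176 and 230.3 in CD73+ cells and 166 and 161 in CD73- cells at day 6 and day 9. It had 691 and 779.6 in unsorted cells, 420.3 in MEF, 319 in SC4 and 230.3 in ESC. The ESC value equalled the highest sorted value, so the sorted arrays did not separate from all others. Against unsorted cells limma gave -1.93 ± 0.0895 (SE), adjusted p = 0.00423, a 3.81-fold difference.

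Scarna2, a guide for the U2 spliceosomal RNA in human cells, was split by population. It had 1377 and 1380.0 in CD49d+ cells, 725 and 712 in CD73+ cells and 853 and 834 in CD73- cells at day 6 and day 9. It had 1345 and 1277 in unsorted cells, 1012 in MEF, 1249.7 in SC4 and 1242 in ESC. The CD49d+ arrays were at the level of unsorted cells and the 4 other sorted arrays below all others, so the called mean difference of -0.48 rested on CD73+ and CD73- cells. Scarna17 (-0.14), Scarna10 (-0.25) and Scarna8 (0.14) were not called.

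Rnu12 and Rnu11 belong to the minor spliceosome, which removes a rare class of introns. Rnu12, whose RNA pairs with the branch site, had 614 and 623 in CD49d+ cells, 419.6 and 394 in CD73+ cells and 469.7 and 463 in CD73- cells at day 6 and day 9. It had 749 and 803 in unsorted cells, 597 in MEF, 673 in SC4 and 570.2 in ESC. It was lower in sorted than in unsorted cells (-0.66 ± 0.0565 (SE), adjusted p = 0.0176 in limma), with CD49d+ arrays within the range of the controls. Rnu11 ranged over 593 to 669.9 on sorted arrays and 632 to 708 on the others and was not called (-0.06 ± 0.0626 SE). Rnu3a, a copy of the U3 RNA that acts in ribosomal RNA cleavage, was near the floor at 100 to 188 on sorted arrays and 116 to 263 on the others, with an uncalled difference of -0.67 ± 0.291 (SE) from unsorted cells.

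In all, limma called 23 of the 77 members (29.9%) in sorted against unsorted cells, 21 lower and 2 higher, and 42 members (54.5%) had an unadjusted p under 0.05, against 30.5% of all genes. Of all 13313 genes tested, 8.54% were called, 4.16% lower and 4.38% higher. The members' share of lower calls was 27.3%, and their median log2 difference was -0.18, against 0.001 over all genes. The fit used the 8 reprogramming arrays with terms for population and day, so its error is the disagreement between day 6 and day 9, which may be days of the same cultures. Omission of any 1 array lowered the count of members called, except for the day 9 CD49d+ array, so the count depended on single arrays. Over these omissions and the alternative scalings and filters the log2 difference stayed between -3.63 and -3.45 for Rny3, -2.62 and -2.48 for Snord89, -2.43 and -2.19 for Snora34, and 1.98 and 2.25 for Snord13. A fit with 1 array left out kept 1 array in that population, and the count over all genes fell in every such fit too. The losses were thus not particular to the members. The choice of members had these data in view, so the member counts are no independent support for a direction.

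**Figure D3:**
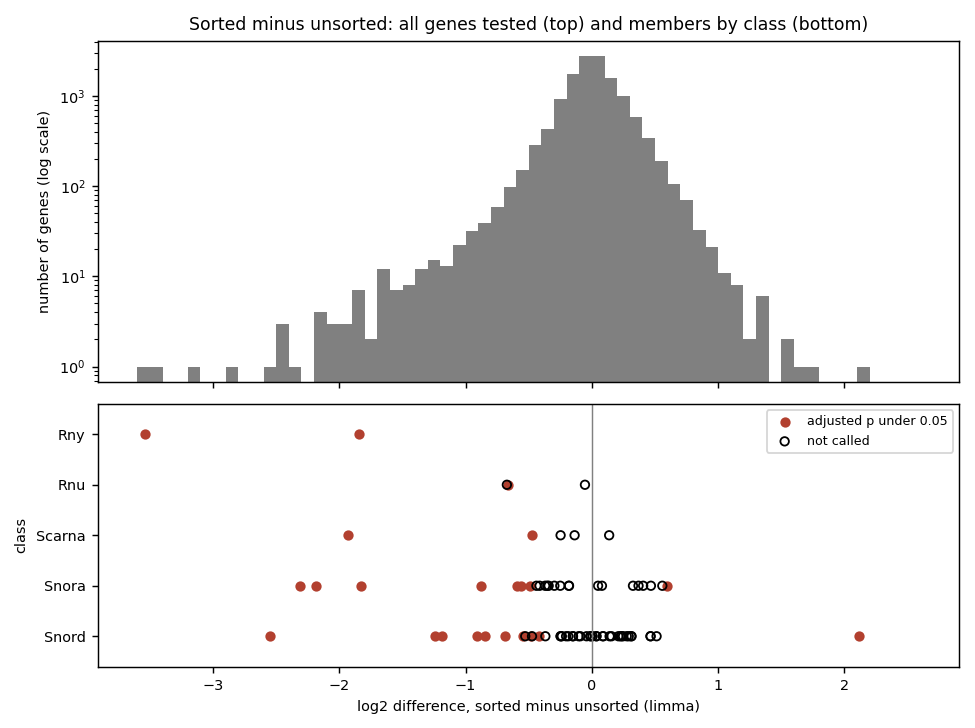
Log2 difference of sorted minus unsorted cells from limma (horizontal) for all 13313 genes tested, as a histogram with a log count axis (top), and for each member by class (bottom), filled where the adjusted p was under 0.05. Most members lie near 0, Rny3 is at the left end at -3.54 and Snord13 at the right end at 2.11.

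Each sorted population showed the main differences by itself. Rny3 differed from unsorted cells by -2.84 in CD49d+, -3.93 in CD73+ and -3.86 in CD73- cells. The differences were -2.45, -2.74 and -2.47 for Snord89 and 2.11, 2.18 and 2.05 for Snord13 in the same order. Limma called these 3 genes in all 3 populations. In CD49d+ minus unsorted cells 21 members were lower and 1 higher, where 4.39% of all genes were called, 1.77% lower and 2.63% higher. In CD73+ minus unsorted cells 22 were lower and 5 higher, where 22.2% of genes were called, 10.8% lower and 11.4% higher. In CD73- minus unsorted cells 12 were lower and 1 higher, where 1.02% of genes were called, 0.811% lower and 0.21% higher. The 3 contrasts share the unsorted arrays. With 1 array left out, the counts over all genes fell in every fit of the 3 contrasts. The member counts also fell in every such fit for CD49d+ and for CD73- cells. For CD73+ cells they fell in all such fits but those without a CD49d+ array.

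Most members lie inside other genes, and those that share a host could differ in their calls. In the RefSeq gene table (GRCm38.p6) 62 members lie inside 1 other gene, 6 inside several and 9 inside none. The 9 outside genes were Rny1, Rny3, Rnu3a, Rnu11, Rnu12, Scarna2, Snord13, Snord89 and Snord118, of which 6 were lower and 1 higher by limma. Of the 62, 15 were lower and 1 higher, and of the 6, none was called (Snora78, Snord8, Snord47, Snord71, Snord87 and Snord91a). The shares called lower were 66.7% of the 9 and 24.2% of the 62, against 4.16% of all genes. The table gives a member's place and not its strand in these files, so a gene that holds a member is called its host by position.

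No host gene was called lower in sorted cells, where limma called 4.16% of all genes lower and 4.38% higher. A set of 40 hosts would hold few calls at these shares, so the count is no result about the hosts. Of 49 hosts, 40 were tested and limma called 2, both higher: Srcap, a chromatin remodeller (0.49 ± 0.0831 SE, adjusted p = 0.0366), which holds Snora30, and 2410002F23Rik (0.25 ± 0.0479 SE, adjusted p = 0.045), which holds Snord88a and Snord88c. None of the hosts of the 15 lower members was called lower. The median over the 40 hosts was 0.09, with a range of -0.29 to 0.56. The difference between a member and its host was not tested.

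Of 10 genes that hold 2 or more members, 23 in all, 8 held both called and uncalled members and 2 held uncalled members alone. The gap in log2 difference between the lowest and highest member of a host ran from 0.17 to 2.39, with a median of 0.67. Differences between members of a host were not tested. Snhg12, a non-coding host gene, holds 4 members. Sorted minus unsorted log2 differences were -1.83 for Snora44, -1.19 for Snord99, -0.41 for Snora16a and -0.18 for Snora61, and 0.20 ± 0.0991 (SE) for Snhg12 itself (limma adjusted p = 0.245). Limma called the first pair and not the other members. Kansl2, which encodes a subunit of a histone acetyltransferase complex, had 0.17 ± 0.0732 (SE), with -2.31 for Snora34 and 0.08 for Snora2b. In 2410006H16Rik (0.10 ± 0.0513 SE) Snord49b differed by -0.85, Snord49a by -0.37 and Snord65 by 0.25. In Gnl3, a nucleolar GTP-binding protein gene (0.03 ± 0.081 SE), Snord69 differed by -0.91 and Snord19 by 0.51. These 4 hosts had the widest gaps. Gaps were narrow in 2410002F23Rik (0.46 for Snord88a and 0.29 for Snord88c), Snhg3 (-0.37 for Snora73a and -0.56 for Snora73b), Ncl (-0.30 for Snora75 and -0.54 for Snord82) and Rpl3 (-0.11 for Snord43 and 0.16 for Snord83b).

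**Figure D4:**
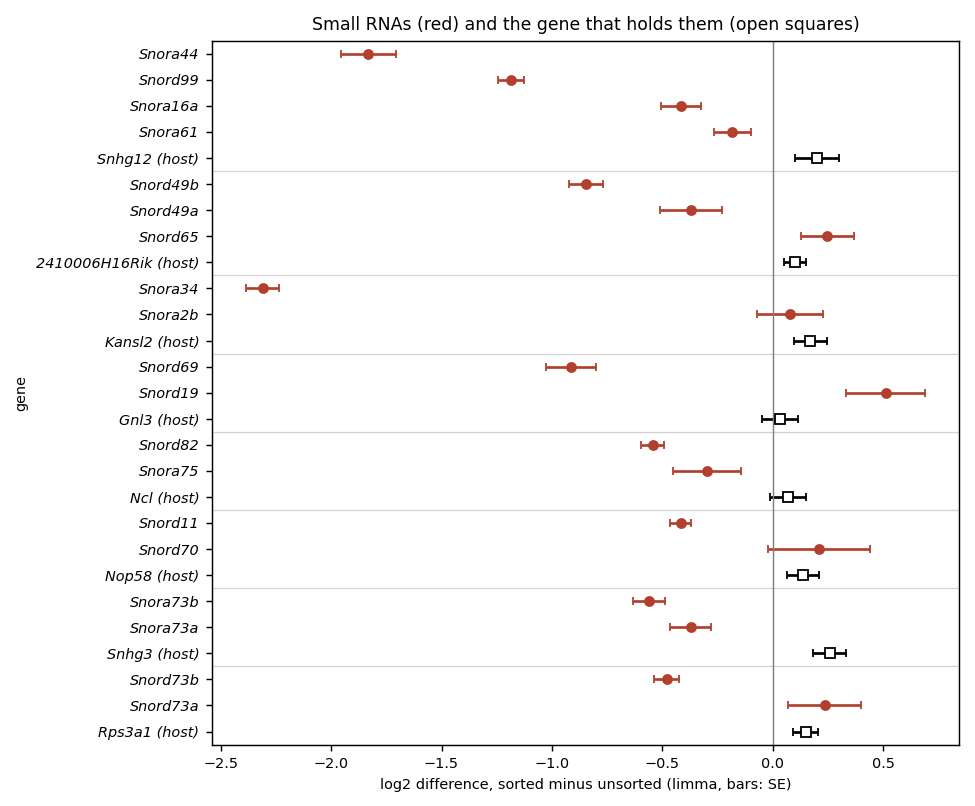
Log2 difference of sorted minus unsorted cells (horizontal, limma, bars are SE) for members (red points) grouped with the gene that holds them (open squares) in the 8 host genes with both called and uncalled members. The host squares lie between 0.03 and 0.26, while the members beside them run from -2.31 to 0.51.

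The first bases of hosts are shown because many host genes of small nucleolar RNAs start their transcripts with a C followed by further pyrimidines, a feature of genes for the translation machinery. A script searched the RefSeq strand of each host for a run of C and T of at least 5 bases that begins with C within 10 bases of the annotated start. It was found in 13 of 38 hosts with a sequence in the table (34.2%) and in 7773 of all 27025 genes (28.8%). The stretches below hold 50 bases before and 50 after the start in build GRCm38.p6 from RefSeq, 5′ to 3′, with the run in capitals.
Snhg12 (chr4:132308628-132308727, plus strand): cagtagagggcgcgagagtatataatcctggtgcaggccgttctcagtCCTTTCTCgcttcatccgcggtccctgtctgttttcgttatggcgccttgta
2410006H16Rik (chr11:62602827-62602926, plus strand): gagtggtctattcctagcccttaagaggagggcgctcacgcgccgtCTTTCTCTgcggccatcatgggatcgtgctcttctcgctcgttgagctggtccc
Kansl2 (chr15:98534220-98534319, minus strand): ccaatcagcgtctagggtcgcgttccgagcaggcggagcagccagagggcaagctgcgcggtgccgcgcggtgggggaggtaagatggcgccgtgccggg
Snhg12 and 2410006H16Rik hold such a run and Kansl2 does not. A match is a description of the letters and the share among hosts was near that of all genes.

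Genes for the proteins that make and bind these RNAs were compared on the same arrays, where 8.54% of all genes were called in sorted minus unsorted cells. Limma called 0 of 3 box C/D core protein genes, 0 of 6 box H/ACA core protein genes, 0 of 26 Sm, Lsm and spliceosomal protein genes and 0 of 24 small RNA transcription genes, with 0, 1, 3 and 5 of them at an unadjusted p under 0.05. Their median log2 differences were 0.07, -0.09, 0.02 and 0.02. Of 6 partners of Y RNAs and 7SK, 0 were called and 2 had an unadjusted p under 0.05. Ro60, which binds Y RNAs, had 0.09 (adjusted p = 0.45) and Ssb, which binds new polymerase III transcripts, had 0.23 (adjusted p = 0.0803). Of 15 assembly factors 1 was lower, Nufip1, a box C/D assembly protein, at -0.55 (adjusted p = 0.0349). Lists this short would hold few calls at that share. In CD73+ minus unsorted cells, where 22.2% of all genes were called, 0 of 3 box C/D and 2 of 6 box H/ACA core protein genes, 5 of 26 Sm, Lsm and spliceosomal genes, 4 of 24 transcription genes, 2 of 6 partners and 5 of 15 assembly factors were called.

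Of 20 genes for small RNA trimming and decay, 3 were higher (15.0%) and 1 lower (5.0%) by limma, against 4.38% and 4.16% of all genes. The exonuclease genes Xrn1 and Xrn2 were at 0.58 (adjusted p = 0.0328) and 0.30 (adjusted p = 0.0372), and Tent4b, a poly(A) polymerase that tags nuclear RNAs for decay, was at 0.43 (adjusted p = 0.0209). Exosc5, an exosome subunit, was at -0.32 (adjusted p = 0.0351). Among 19 tested non-coding host genes, Snhg14 was higher at 1.53 (adjusted p = 0.0249), Snhg6 was higher at 0.51 (adjusted p = 0.0296) and Snhg17 was lower at -0.46 (adjusted p = 0.0209), so 10.5% were higher and 5.26% lower.

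Of 9 other nuclear or short RNAs, 3 were lower (33.3%, against 4.16% of all genes). Rpph1, the RNA of RNase P, had -1.29 (adjusted p = 0.0207), and all its sorted arrays were below the 5 others. Rprl2, a gene related to Rpph1, had -1.39 (adjusted p = 0.0207) and Terc, the telomerase RNA, had -0.62 (adjusted p = 0.0323). Rn7sk, a polymerase III transcript that holds back transcription elongation, had -0.17 (adjusted p = 0.121) and was not called, although its sorted arrays also lay below all others. Of 176 microRNA genes, 0 were lower on all 6 sorted arrays and 1 was higher, against 0.741% and 1.21% of all genes. Limma called 7 of the 139 tested (5.04%, against 8.54% of all genes), 6 higher and 1 lower.

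Other gene groups differed between sorted and unsorted cells on the same arrays. Fibroblast marker genes (6 of 6 measured) summed to 1253 to 6173 on sorted arrays, against 5337 to 8966 on unsorted arrays and 33355 in MEF. All 6 had log2 differences below 0, with a median of -1.14, and limma called 0 of them, 3 with an unadjusted p under 0.05. Of 14 immediate early and heat shock genes, which respond to stress, 4 were lower by limma (Gadd45b, Atf3, Hspa1b and Ier3). These were 28.6% of the list, against 4.16% of all genes, and 0.0% were higher, against 4.38%. The list summed to 15138 to 15981 on sorted and 16668 to 17901 on unsorted arrays. Of 5 macrophage and blood markers, Ptprc, Csf1r and Tyrobp were at the floor on all arrays, and the other two summed to 646 to 894 on sorted and 627 to 774 on unsorted arrays, with Laptm5 higher by limma. The 3 endothelial markers summed to 300 to 389 on sorted and 300 to 389.9 on unsorted arrays. The 6 ESC markers were near their summed floor of 600 on all arrays but ESC (18286). The part of these groups in the differences of the members was not tested.

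Within the sorted cells, CD49d+ arrays were often the lowest. Both CD49d+ arrays were below the 4 other sorted arrays for 29 members (37.7%), against 13.8% of all genes, and above them for 6, against 14.7%. The 29 comprised 12 Snora, 16 Snord and 1 Scarna members. The 6 were Rny3, Rnu12, Scarna2, Snora47, Snord23 and Snord49b. Fibroblast markers moved with this split against CD73+ cells: the 6 summed to 6046 and 3064 in CD49d+ cells at day 6 and day 9, 1269 and 1253 in CD73+ cells and 4014 and 6173 in CD73- cells. In CD49d+ minus CD73+ cells all 6 were above 0, with a median log2 difference of 1.68 and a range of 0.85 to 2.43, and 6 had an unadjusted p under 0.05 while limma called 0. In CD49d+ minus CD73- cells their median was 0.23. Their part in the differences of the members was not tested. This split and the contrasts between sorted populations were chosen after the values had been seen.

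Limma called 17 members in CD49d+ minus CD73- cells (22.1%), 13 lower and 4 higher, where it called 13.3% of all genes, 5.66% lower and 7.69% higher. Snora23 had 1508 and 1865 in CD49d+ cells at day 6 and day 9, against 3158 and 2970.5 in CD73- cells (-0.87 ± 0.108 (SE), adjusted p = 0.0149). Snord69 had 414 and 469.7 in CD49d+ cells, against 742 and 879 in CD73- cells (-0.87). Snord83b (-0.89), Snora75 (-0.85), Snora16a (-0.57) and Snord22 (-0.56) followed on the log2 scale. The higher members were Rny3 (1.02, fitted, with 1 CD73- array at the floor), Scarna2 (0.71), Rnu12 (0.41) and Snora47 (0.40). In CD49d+ minus CD73+ cells limma called 1 member, Scarna2 (0.94, adjusted p = 0.0407), where it called 0.03% of genes, 0.0225% lower and 0.00751% higher, and 35 members (45.5%) had an unadjusted p under 0.05, against 24.1% of all genes. With 1 array left out, the calls against CD73- cells and against CD73+ cells were fewer in every fit, both among the members and over all genes. The 1 call against CD73+ cells was lost without any 1 array.

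Poised cells, taken as the mean of CD49d+ and CD73+, differed from CD73- cells in 7 members (9.09%) by limma, where 12.0% of all genes were called, 4.85% lower and 7.16% higher. Snord83b (-0.69), Snord69 (-0.59), Snord42b (-0.33), Snord11 (-0.30) and Snord82 (-0.29) were lower, and Snord73b (0.28) and Scarna2 (0.24) were higher. For Scarna2 the CD73+ arrays lay below both CD73- arrays and the CD49d+ arrays above, so the mean joined 2 opposite differences, and for Snord82 the CD73+ arrays alone were low. The count was 0 on the 6 sorted arrays alone, where 1087 of 12973 genes were called. With 1 array left out the member count fell in every fit but that without the day 9 CD49d+ array, where it rose. The count over all genes moved in the same direction in each of these fits.

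Between day 9 and day 6 limma called 0 members, as it called 0.0% of all genes, and 6 members (7.79%) had an unadjusted p under 0.05, against 11.6% of all genes. Among these 6, Snord53 (-0.50) and Snord13 (-0.34) had the lowest differences and Snora34 (0.18) the highest. The populations of a day are not replicates of that day.

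Among the controls, MEF was the lowest of all 11 arrays for 39 members (50.6%), against 23.7% of all genes, and the highest for 7, against 25.3%. The 7 were Rny3, Snord8, Snord23, Snord71, Snord82, Snord99 and Snord123. MEF was lowest for 16 of 24 Snora and 21 of 43 Snord members, 2 of 5 Scarna and 0 of the Rnu and Rny members. It was also lowest for 34 of the 40 hosts tested. The core protein genes showed the same order: MEF was lowest for 3 of 3 box C/D and 6 of 6 box H/ACA genes.

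SC4 minus MEF was 1 log2 unit or more for 36 members and -1 or less for 3, against 11.0% and 11.5% of all genes. ESC minus MEF was so for 22 and 3 members, against 12.0% and 11.9%. The member medians were 0.83 for SC4 minus MEF and 0.62 for ESC minus MEF, and both medians over all genes were 0.0. Snora69 had 1278 in SC4 and 856 in ESC, against 195 in MEF. Snora75 had 938 in SC4 and 1360.2 in ESC, against 236 in MEF. Snord53 had 3432 in SC4 and 4073 in ESC, against 780.4 in MEF. These guide RNAs thus stood several-fold higher in the SC4 and ESC arrays, in single arrays with no test.

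The members below MEF were few. Rny3 and Snord123 were lower in both SC4 (-1.09 and -1.15) and ESC (-1.28 and -1.13), Snord71 in SC4 (-1.03) and Rny1 in ESC (-1.31), all at -1 log2 unit or less. ESC minus SC4 was -1 or less for 4 members (Rny1, Snora15, Snord88a and Snord110) and 1 or more for 0, against 5.42% and 7.39% of all genes. The mean of the unsorted arrays minus MEF was 1 or more for 25 members and -1 or less for 2, against 8.71% and 8.1%.

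**Figure D5:**
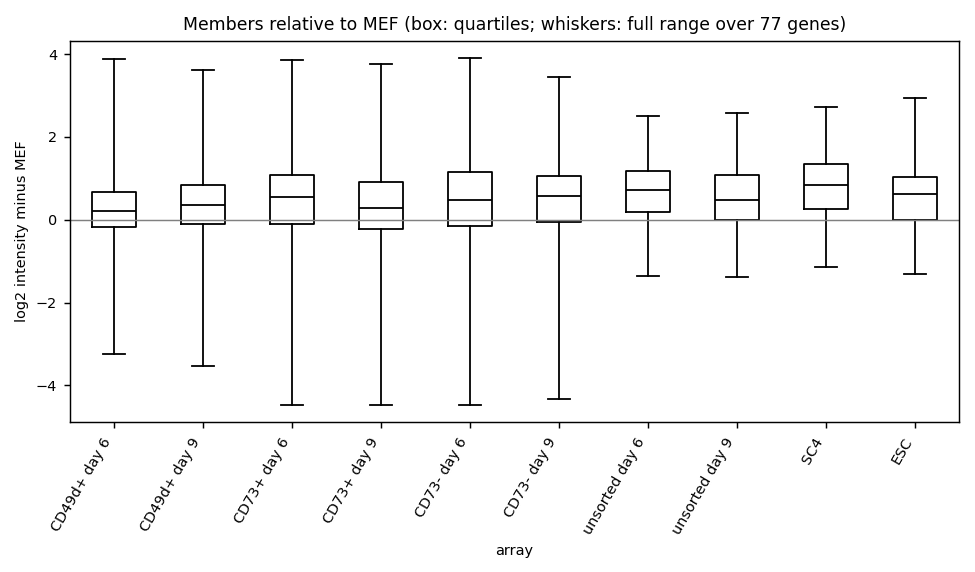
Log2 intensity minus the MEF array (vertical) over the 77 members on each of the other 10 arrays (horizontal), with the median as a line, quartiles as boxes and the full range as whiskers. The medians lie above 0 on all 10 arrays, and the lower whiskers of the sorted arrays reach further down than those of the unsorted, SC4 and ESC arrays.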

How the data were processed

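The deposited values are linear intensities for 41345 probe sets on 11 Affymetrix whole-transcript arrays, 1 per group. Partek, with no version, is named per the submitters' processing notes; the sources used here do not give summarisation or scaling. Per the labels' protocols RNA was prepared with silica columns and DNase treatment, and such columns retain RNAs as short as these (48 to 248 bases in the gene table) incompletely; recovery was not measured. Symbols came from the platform annotation, and 60 probe sets with a member symbol beside other symbols were not used. Log2 of the deposited intensity was taken with no further scaling. Sorted (6) and other (5) arrays were described without a test. limma 3.58.1 (lmFit and eBayes, under R 4.3.3) was run on the 8 reprogramming arrays with population and day as terms, with 3 residual degrees of freedom and a prior of 2.12. Calls are Benjamini-Hochberg adjusted p under 0.05 over 13313 genes. The script was tested on simulated data. Hosts were taken by containment, because member strands are not in the table used, although a match of strands had been planned. The number of arrays limits the precision. Alternatives were scaling, dim filters, probe sets per gene, the day term and omission of each array. Named were members without overlap, the extremes of each class by difference and by mean intensity, and called members. Members, lists and tests were chosen with earlier results of these data known.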

Additional observations from a re-analysis of the deposited data

Results flagged for a closer look

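Snord8 was singled out because its sorted minus unsorted difference had opposite signs at the 2 days. All 3 sorted populations were above unsorted cells at day 6 (556, 509 and 561 against 501) and below them at day 9 (540.3, 544 and 506 against 578). The mean log2 difference was 0.11 at day 6 and -0.13 at day 9, a gap of 0.24. The gap was not tested, and each day has 1 unsorted array.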

How the results depend on the processing

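The fit compared populations within day 6 and day 9. No paired analysis was possible beyond that day term because each group has 1 array and the labels carry no replicate numbers. The 23 calls in sorted minus unsorted cells (21 lower) numbered 22 to 33 over scalings, dim filters, probe set means and omission of the day term, and 0 to 23 (0 to 21 lower) with 1 array left out, a fit with 2 residual degrees of freedom. Over all genes that contrast had 1137 calls, 1770 with centring, 1719 with quantile normalization and 454 without a dim filter. It had fewer than 1137 with any 1 array left out. Poised minus CD73- cells had 7 members called, where 1599 of all genes were called. The members called were 13 with each array centred (2262 genes), 11 above 200 (1844 genes) and 1 without a filter (994 genes). On the sorted arrays alone they were 0 (1087 genes). The member count also changed with any 1 array left out. Day 9 minus day 6 had 0 members called, 1 with centring (137 genes) and 0 with any 1 array left out. The 10 members lower on all sorted arrays became 27 against the unsorted arrays alone. That rule is easier to meet, and the share of all genes that met it was not counted, so the rise is no result about the members. With 1 array left out the 10 ranged over 10 to 17, with 17 without MEF. The median of -0.12 over members ranged over -0.19 to -0.04, and the 29 members lowest in CD49d+ cells over 29 to 37. No call changed sign under these alternatives; in refits of single called members 193 kept the call and 129 lost it in sorted minus unsorted cells, and 35 kept and 70 lost it in poised minus CD73- cells. The causes were not tested. The floor limits Rny1, Rny3, Snora15 and Rnu3a.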

Other observations

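Probe sets annotated with several symbols, outside the members, held further RNAs of the same classes: 32 distinct sets of values above the floor. Their sorted minus unsorted log2 differences ran from -1.41 (Snora52 and Rplp2) to 0.96 (Snora81 and Eif4a2), with no test. In 5 sets all 6 sorted arrays lay below both unsorted arrays, a share not counted over all genes. The sets described here were taken from these 5 and do not stand for the rest. Rnu1b1, Rnu1b2 and Rnu1b6, genes of the U1 spliceosomal RNA, share 9 probe sets of identical values, 233 and 273 in CD49d+, 239 and 226 in CD73+ and 233 and 274 in CD73- cells at day 6 and day 9, against 531 and 369.8 in unsorted cells, 247 in MEF, 449 in SC4 and 437 in ESC. The sorted arrays were below both unsorted arrays (a mean log2 difference of -0.85, with no test) and overlapped MEF. The Rnu3b genes of U3 RNA, on 4 probe sets, had 1121 and 1151 in CD49d+, 1010.2 and 1272 in CD73+ and 1176 and 1241 in CD73- cells at day 6 and day 9, against 1998 and 2039 in unsorted cells, 1383 in MEF, 1540.3 in SC4 and 1256 in ESC, with all sorted arrays below unsorted cells and a difference of -0.80.

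The probe set of Snora52 and its host Rplp2 had 1790.5 and 2191 in CD49d+, 2475 and 1832 in CD73+ and 2337 and 1698 in CD73- cells at day 6 and day 9, against 5454 and 5331 in unsorted cells, 2634 in MEF, 5406 in SC4 and 4769 in ESC. That of Snord32a and Rpl13a had 1781 and 1603 in CD49d+, 1532 and 1895 in CD73+ and 1624 and 1822 in CD73- cells at day 6 and day 9, against 3206 and 3537 in unsorted cells, 4573 in MEF, 3624 in SC4 and 4310.5 in ESC. In both the 6 sorted arrays were below the 5 others, and no distinct set was above them on all 6. Of all 14301 genes, 0.741% were below and 1.21% above in this way. The differences from unsorted cells were -1.41 and -0.98, and which of the named genes such a probe set measures was not tested.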
